A study of Homo sapiens with 29 samples.

Results

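The Kruppel-like factor (KLF) genes described here are KLF2, KLF3, KLF4, KLF5, KLF6, KLF7, KLF9, KLF10, KLF11 and KLF13, 10 of the 18 KLF family genes among 38148 genes of the RNA table. They were chosen by symbol, with all RNA values already known, and the chromatin table gives 20 of its 49916 regions to 9 of these symbols. No level or fold change is named as the criterion. Of the genes left out, KLF12 came next below the member with the lowest values, at 2.47 to 6.05 RPM (reads of a gene scaled to a common library depth, not per length) over the 16 RNA libraries against 6.13 to 12 RPM for KLF9. KLF16 was left out although it measured 61.5 to 98.4 RPM. Levels and the RNA changes with crotonate or DAXX siRNA are therefore given as a description. The number of members past a threshold supports nothing by itself.

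KLF proteins bind GC-rich sequences, the GC box and the CACCC box, through zinc fingers at the C-terminal end, and differ in the cofactors that their N-terminal parts recruit. KLF2, KLF4, KLF5, KLF6 and KLF7 are mostly known as activators that can recruit acetyltransferases, KLF3 as a repressor that binds CtBP, and KLF9, KLF10, KLF11 and KLF13 as factors that bind the Sin3A corepressor. In the intestine KLF4 marks differentiated surface cells that have left the cell cycle, and KLF5 marks the dividing cells of the crypt.

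HCT116, an established human colorectal carcinoma line, was studied in 4 RNA groups of 4 libraries: DAXX siRNA with crotonate, non-targeting (NT) siRNA with crotonate, DAXX siRNA alone and NT siRNA alone. DAXX siRNA was used at 35 nM and NT siRNA at 25 nM, so target and dose changed together, and crotonate was 10 mM, for 18 h by the series text or 48 h by the sample protocol. Crotonate is a short-chain fatty acid that cells convert to crotonyl-CoA, the donor for lysine crotonylation (Kcr), and DAXX is a chaperone of histone H3.3. Chromatin immunoprecipitation (ChIP) with a pan-Kcr antibody gave 2 libraries for each siRNA with crotonate and 4 for each without, of which 1A and 1B were averaged as 1 sample (n = 3), and there was 1 input library, from DAXX siRNA cells without crotonate.

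RNA libraries held 35003617 to 55128007 reads in genes and anti-Kcr libraries 2226835 to 3639130 reads in regions. DAXX itself measured 13.1 to 24.2 RPM in DAXX siRNA cells with crotonate, against 95.2 to 102 RPM in NT siRNA cells with crotonate, and 22.9 to 27.4 RPM in DAXX siRNA cells without it, against 101 to 105 RPM in NT siRNA cells. Of 12 colon epithelial markers, 7 averaged at least 1 RPM, among them EPCAM, CDH1, VIL1 and CDX2, while CDX1 and CEACAM5 had no read. The labels do not say whether replicates are separate cultures, so p-values measure the spread between these libraries only. The RNA values are not divided by gene length, so apart from the range that bounds the selection, levels are compared between groups and not between genes.

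All promoter sequences below are from RefSeq on GRCh38.p14, and 8 of the 10 members matched that table, with 13 annotated starts. KLF2, KLF6 and KLF13 are shown for the boxes that KLF proteins bind, and KLF5 as a stretch without them. The stretches outside KLF7 and KLF9, which also hold no box, are not printed. Only bases outside the gene as the RNA table bounds it are printed, 5′ to 3′ along the gene's strand, with GC boxes (GGGCGG, or CCGCCC on the other strand) and CACCC boxes (CCACCC or GGGTGG) in capitals. The windows are chr19:16324576-16324816 (plus strand) for KLF2, chr10:3785282-3785459 (minus strand) for KLF6, chr15:31326585-31326834 (plus strand) for KLF13 and chr13:73054726-73054975 (plus strand) for the upstream start of KLF5.
KLF2: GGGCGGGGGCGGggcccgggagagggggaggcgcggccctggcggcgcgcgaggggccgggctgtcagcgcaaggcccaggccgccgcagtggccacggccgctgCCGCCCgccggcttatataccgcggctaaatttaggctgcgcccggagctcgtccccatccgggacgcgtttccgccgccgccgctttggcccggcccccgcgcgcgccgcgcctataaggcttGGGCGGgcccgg
KLF6: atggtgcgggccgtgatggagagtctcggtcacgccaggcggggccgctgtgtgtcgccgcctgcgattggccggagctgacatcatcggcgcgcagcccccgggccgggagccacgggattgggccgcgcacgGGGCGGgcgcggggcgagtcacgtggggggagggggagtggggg
KLF13: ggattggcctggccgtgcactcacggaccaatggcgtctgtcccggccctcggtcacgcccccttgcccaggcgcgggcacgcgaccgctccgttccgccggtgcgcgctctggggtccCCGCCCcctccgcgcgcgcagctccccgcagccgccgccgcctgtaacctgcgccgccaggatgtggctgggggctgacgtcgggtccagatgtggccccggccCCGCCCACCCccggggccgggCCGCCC
KLF5: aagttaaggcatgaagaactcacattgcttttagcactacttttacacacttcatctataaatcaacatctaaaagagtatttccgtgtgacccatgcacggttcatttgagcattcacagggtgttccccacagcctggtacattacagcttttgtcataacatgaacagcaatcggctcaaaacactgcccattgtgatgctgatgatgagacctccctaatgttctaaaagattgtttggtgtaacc
In these stretches KLF2 has 4 GC boxes, KLF6 has 1, and KLF13 has 3 GC boxes and 1 CACCC box that overlaps a GC box. The KLF5 stretch has neither, is 40.8% G or C and has 3 CpG, whereas the 250 bases before the second KLF5 start, inside the gene, are 70.8% G or C with 27 CpG and 2 GC boxes. Over the full 250 bases before each start, 8 of the 13 member windows held a GC box and 2 held a CACCC box, against 42.6% and 31.3% of all 35116 RefSeq promoters. Every CACCC or GC match is a match of letters only. Among the windows, 11 of 13 lay at least partly in an anti-Kcr region. The exceptions were the upstream KLF5 start and 1 internal KLF7 start.

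**Figure D1:**
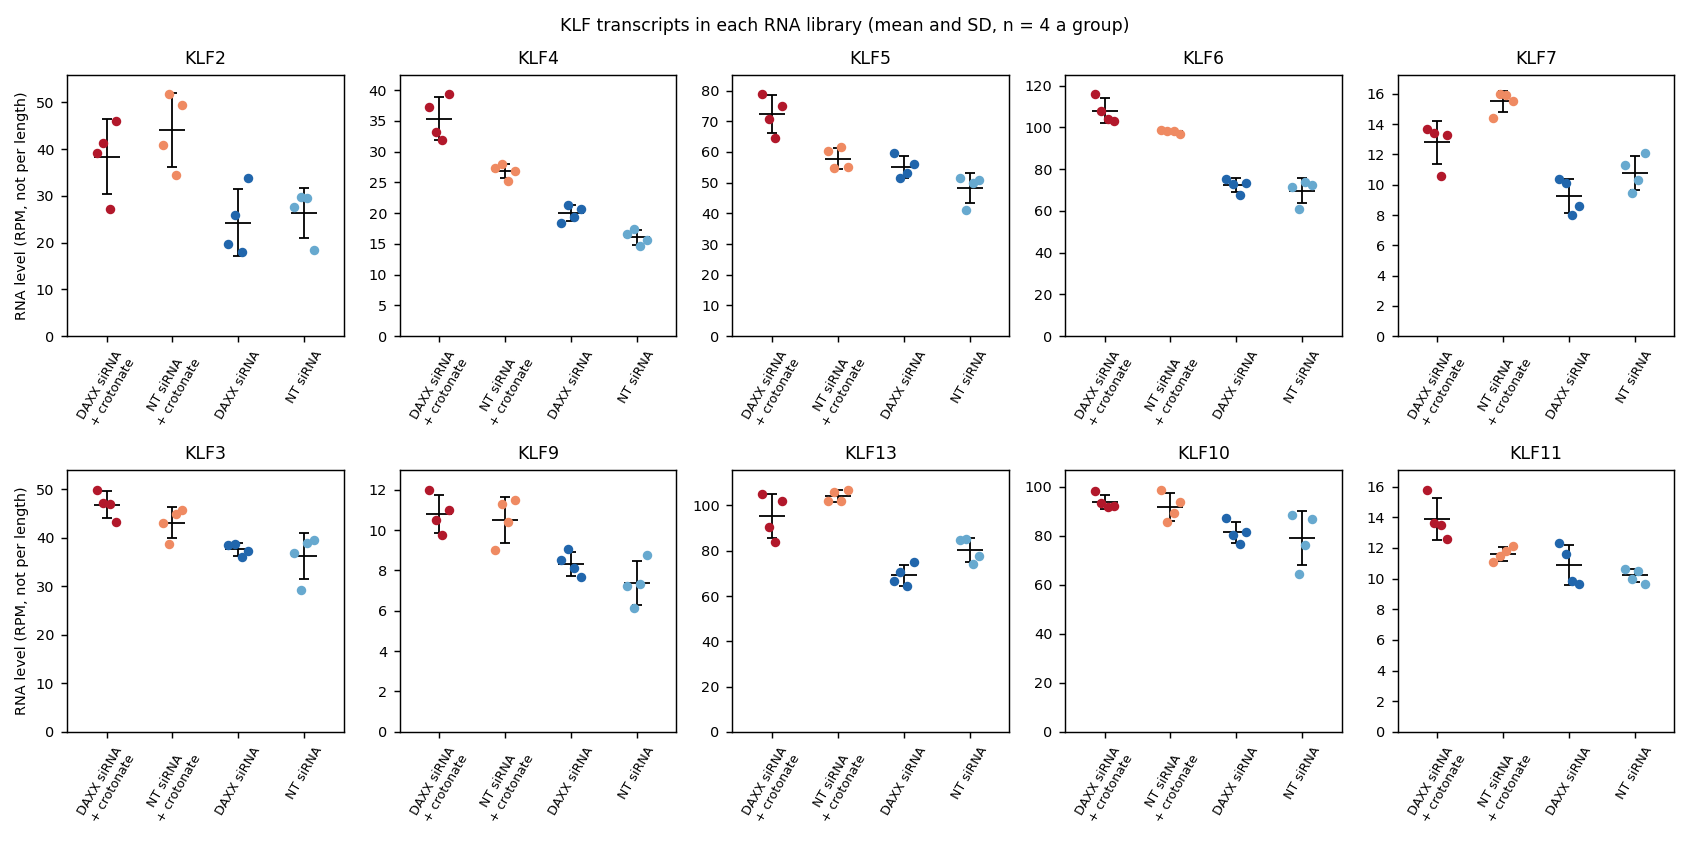
RNA level in RPM, not per length, of the 10 KLF genes in each of 16 libraries. Points are libraries, bars the mean and SD of 4, and axes start at 0. For KLF4 the 4 groups do not overlap, from 31.9 to 39.4 RPM in DAXX siRNA cells with crotonate down to 14.7 to 17.4 RPM in NT siRNA cells.

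The question of the crotonate comparisons was which transcripts differ between cells given crotonate and cells not given it. All 10 KLF genes had a higher mean with crotonate in both siRNA arms. In the DAXX siRNA arm 9 of 10 passed limma's adjusted p of 0.05 as higher, against 13% of the 17973 genes tested, and every crotonate library lay above every other in 9, against 14.7% of all genes. In the NT siRNA arm 7 of 10 passed, against 13.1% of genes, and 8 did not overlap, against 16%. None passed as lower. Since the members were selected with these values known, nothing is read from these counts. In bulk RNA, a change in how many cells express a gene and a change in its RNA per cell cannot be told apart. Their median log2 fold change was 0.42 in the DAXX siRNA arm, where the median of all genes was 0.06, and 0.44 in the NT siRNA arm, where it was 0.07. The arms share no library. Centring each library on its median gene moved that median to -0.06 in both arms, shifts of -0.12 with DAXX siRNA and -0.13 with NT siRNA, and left 6 members called in each. That centring also changed the split over all genes, to 1515 higher and 1488 lower with DAXX siRNA, against 2338 and 433 as deposited, and to 1458 and 1701 with NT siRNA, against 2352 and 420. Quantile scaling gave 1448 and 852 with DAXX siRNA and 1424 and 1010 with NT siRNA.

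KLF4 (chr9:107484852-107490482, minus strand on GRCh38), a repressor of the cell cycle in gut epithelium, had the largest fold change of the 10 in the DAXX siRNA arm. It measured 37.2, 33.2, 31.9 and 39.4 RPM in DAXX siRNA cells with crotonate, against 18.4, 21.4, 19.3 and 20.6 RPM in DAXX siRNA cells without it. In NT siRNA cells it measured 27.3, 28.0, 25.3 and 26.9 RPM with crotonate, against 16.6, 17.4, 14.7 and 15.6 RPM without. Every library with crotonate was above every library without it, in both arms and across them. The ratios were 1.77 in the DAXX siRNA arm and 1.67 in the NT siRNA arm, or log2 fold changes of 0.82 and 0.74 with an SE of 0.09 each. KLF4 stayed called in all 24 alternative settings in each arm.

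KLF2 (chr19:16324817-16327874, plus strand), known for keeping endothelial cells and T cells quiescent, changed by a similar ratio but varied far more between replicates. It measured 39.2, 41.2, 27.1 and 46.1 RPM in DAXX siRNA cells with crotonate, against 19.8, 25.8, 18.0 and 33.8 RPM in DAXX siRNA cells without it. With NT siRNA it was at 40.9, 51.8, 34.4 and 49.5 RPM with crotonate, against 27.6, 29.8, 29.6 and 18.4 RPM without. The groups overlapped in the DAXX siRNA arm, where the third crotonate library was below the fourth without crotonate, and not in the NT siRNA arm. Between libraries of the same number, the crotonate library was higher in all 4 cases of the DAXX siRNA arm. With the replicate number as a block the limma adjusted p of KLF2 was 0.011, though the numbers are not shown to pair the samples. Its log2 fold changes were 0.68 and 0.75 with an SE of 0.20 each, against 0.09 for KLF4. With DAXX siRNA the call was lost in 7 of 24 settings, among them without DAXX siRNA replicate 1 or 3 or DAXX siRNA crotonate replicate 1, 2 or 4, at limma adjusted p values of 0.059 to 0.101.

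KLF6 (chr10:3775996-3785281, minus strand), a tumour suppressor candidate that raises the cell-cycle inhibitor p21 in some cells, had the smallest SE of the 10. In DAXX siRNA cells with crotonate it measured 116, 108, 104 and 103 RPM, against 75.2, 72.7, 67.5 and 73.5 RPM in DAXX siRNA cells without it. In NT siRNA cells it measured 98.6, 98.4, 98.0 and 96.9 RPM with crotonate, against 71.5, 60.7, 74.0 and 72.6 RPM without. No group with crotonate overlapped a group without it. The ratios were 1.49 and 1.41, and the log2 fold changes 0.58 and 0.50 with an SE of 0.07 each.

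KLF5 (chr13:73054976-73077541, plus strand), which drives proliferation of crypt cells, differed less. It measured 78.9, 70.7, 64.6 and 75.0 RPM in DAXX siRNA cells with crotonate, against 59.5, 51.5, 53.2 and 56.0 RPM in DAXX siRNA cells without it. Its level in NT siRNA cells was 60.2, 54.7, 61.5 and 55.0 RPM with crotonate, against 51.4, 41.1, 49.8 and 50.7 RPM without. Within each arm the groups did not overlap, but NT siRNA cells with crotonate overlapped DAXX siRNA cells without it. For KLF5 the log2 fold changes were 0.39 and 0.27 with an SE of 0.09 each. In the NT siRNA arm the call was lost in 13 of 24 settings, and centring on the median gene left a log2 fold change of 0.14. Without NT siRNA replicate 2, the lowest library, it was 0.19 with a limma adjusted p of 0.111. Leaving out NT siRNA replicate 3, any NT siRNA crotonate library, DAXX siRNA replicate 2 or 3, or DAXX siRNA crotonate replicate 2 also ended the call, at 0.0501 to 0.124 in limma.

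KLF7 (chr2:207074137-207167267, minus strand), studied mainly in neurons and adipocytes, measured 13.7, 13.4, 10.6 and 13.3 RPM in DAXX siRNA cells with crotonate, against 10.4, 10.1, 7.97 and 8.62 RPM in DAXX siRNA cells without it. KLF7 was at 14.4, 16, 15.9 and 15.5 RPM in NT siRNA cells with crotonate, against 11.3, 9.48, 10.3 and 12.1 RPM without. Every crotonate library was above every other within each arm. KLF7 thus had log2 fold changes of 0.47 and 0.53 with an SE of 0.11 each, and quantile scaling ended the DAXX siRNA call (0.32, limma adjusted p = 0.0648). KLF7-IT1 lies within KLF7 on the same strand and MYOSLID overlaps it on the other. The strand counted is not given in the sources used here, so reads of these genes cannot be told apart from those of KLF7.

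KLF3 (chr4:38664197-38701517, plus strand), the CtBP-binding repressor, measured 43.2 to 49.9 RPM in DAXX siRNA cells with crotonate, against 36.0 to 38.8 RPM in DAXX siRNA cells without it. In NT siRNA cells it measured 38.6 to 45.8 RPM with crotonate, against 29.2 to 39.5 RPM without, and those groups overlapped. Its log2 fold changes were 0.31 and 0.26 with an SE of 0.09 each, and only the DAXX siRNA arm passed the threshold. That call was lost without DAXX siRNA replicate 3 or DAXX siRNA crotonate replicate 1 or 2 (limma adjusted p = 0.0722, 0.0667 and 0.0582). It was also lost under centring (0.20, limma adjusted p = 0.15) and quantile scaling (0.25, 0.0607). The NT siRNA arm passed without NT siRNA replicate 3 or 4 or NT siRNA crotonate replicate 2 (0.0479, 0.0392 and 0.0433). KLF3-AS1 overlaps KLF3 on the other strand, so the reads of this pair cannot be told apart either.

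KLF13 (chr15:31326835-31435665, plus strand), a Sin3A-binding factor first known from T cells, measured 105, 90.7, 83.9 and 102 RPM in DAXX siRNA cells with crotonate, against 66.7, 70.6, 64.6 and 75.0 RPM in DAXX siRNA cells without it. With NT siRNA it was at 102, 106, 102 and 107 RPM with crotonate, against 84.7, 85.3, 74.1 and 77.7 RPM without. The groups did not overlap within either arm. The log2 fold changes were 0.46 and 0.38 with an SE of 0.08 each, and both stayed called in all 24 alternative settings.

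KLF9 (chr9:70384597-70414624, minus strand), a target of glucocorticoid and thyroid hormone receptors, had the fewest reads of the 10, from 248 to 564 per library. It measured 12, 10.5, 9.77 and 11 RPM in DAXX siRNA cells with crotonate, against 8.50, 9.05, 8.11 and 7.65 RPM in DAXX siRNA cells without it. In NT siRNA cells it measured 8.99, 11.3, 10.4 and 11.5 RPM with crotonate, against 7.24, 6.13, 7.33 and 8.77 RPM without. No crotonate library fell into the range of the libraries without it in the same arm. KLF9 had log2 fold changes of 0.37 and 0.52 with an SE of 0.12 each. In the DAXX siRNA arm the call was lost in 8 of 24 settings, with a limma adjusted p of up to 0.276 under quantile scaling and of 0.0597 to 0.0994 without any of 6 libraries: DAXX siRNA replicate 1, 3 or 4, and DAXX siRNA crotonate replicate 1, 2 or 4. Under quantile scaling the NT siRNA arm also missed, at 0.0597.

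KLF10 (chr8:102648784-102655725, minus strand) and KLF11 (chr2:10042849-10054836, plus strand), named for early induction by TGF-beta, had the smallest fold changes of the 10 members in the NT siRNA arm. KLF10 measured 91.6 to 98.2 RPM in DAXX siRNA cells with crotonate, against 76.8 to 87.2 RPM in DAXX siRNA cells without it, and 85.6 to 98.8 RPM in NT siRNA cells with crotonate, against 64.5 to 88.5 RPM in NT siRNA cells. Only the NT siRNA groups overlapped. Its log2 fold changes were 0.21 and 0.23 with an SE of 0.09 each, and neither passed the threshold. Centring on the median gene left 0.09 and 0.10 (limma adjusted p = 0.537 and 0.499). With the replicate number as a block, the NT siRNA arm passed at a limma adjusted p of 0.0403, and it passed without NT siRNA replicate 1 (0.0477) or 4 (0.0499). The DAXX siRNA arm passed without NT siRNA replicate 2 (0.0357). KLF11 measured 12.6 to 15.8 RPM in DAXX siRNA cells with crotonate, against 9.66 to 12.3 RPM in DAXX siRNA cells without it, and 11.1 to 12.1 RPM in NT siRNA cells with crotonate, against 9.65 to 10.6 RPM in NT siRNA cells. The groups did not overlap in either arm, yet the log2 fold changes of 0.36 and 0.19, with an SE of 0.10 each, passed only with DAXX siRNA. Without DAXX siRNA replicate 3 or 4 or DAXX siRNA crotonate replicate 1 that call was lost (limma adjusted p = 0.062, 0.0537 and 0.0565). It was also lost under centring (0.24, limma adjusted p = 0.109) and quantile scaling (0.22, 0.182), where the NT siRNA value was 0.01. AC104794.4 overlaps KLF11 on the other strand.

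**Figure D2:**
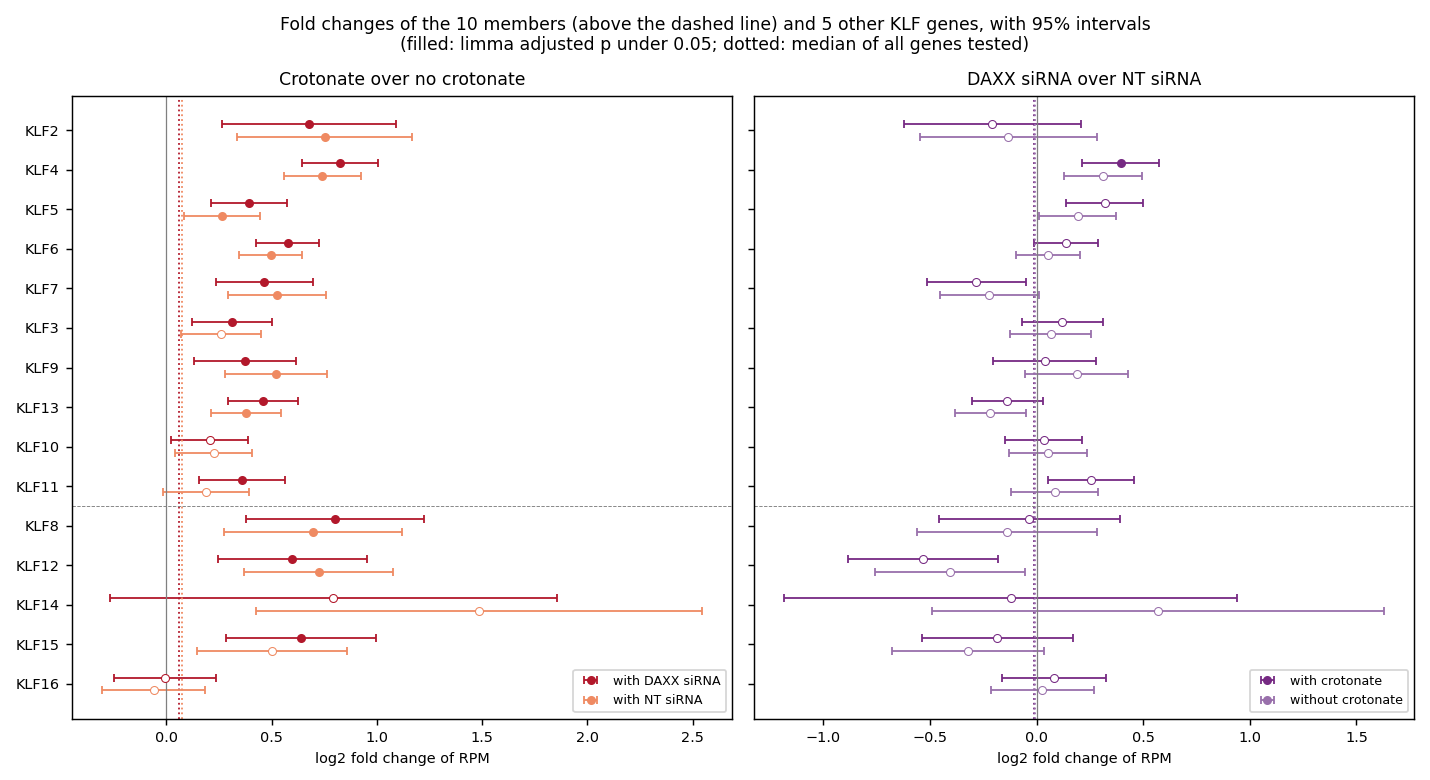
Log2 fold change of RPM (x axis) with its 95% interval for the 10 KLF genes and the 5 other KLF genes tested, for crotonate over no crotonate (left) and DAXX siRNA over NT siRNA (right). Filled points passed limma's adjusted p of 0.05 and dotted lines mark the median of all genes. On the right only KLF4 with crotonate, at 0.39, is filled.

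DAXX siRNA was compared with NT siRNA within each crotonate condition, to see which transcripts differ between the siRNAs. Target and dose changed together, so a difference cannot be assigned to DAXX alone. With crotonate, KLF4 rose in DAXX siRNA cells, to 35.4 ± 3.50 RPM against 26.9 ± 1.13 RPM in NT siRNA cells (SD, n = 4 each). It was the only member called, 1 of 10 where 1.06% of all genes were called in either direction. The members were chosen with these values known too, so nothing is read from that count. The log2 fold change was 0.39 (SE 0.09, limma adjusted p = 0.0274), and every DAXX siRNA library was above every NT siRNA library. The call was lost without any of the 4 NT siRNA crotonate libraries, at adjusted p values of 0.076, 0.0628, 0.121 and 0.0857 for replicates 1 to 4, and without DAXX siRNA crotonate replicate 1 (0.0762) or replicate 4 (0.0861). The fold change stayed between 0.34 and 0.44 in all alternatives.

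KLF5 measured 72.3 ± 6.12 RPM in DAXX siRNA cells with crotonate and 57.8 ± 3.50 RPM in NT siRNA cells with crotonate (SD, n = 4 each), also without overlap. Its log2 fold change was 0.32 (SE 0.09, limma adjusted p = 0.0862), which did not pass. It passed with the replicate number as a block, at 0.041, and without NT siRNA replicate 2, at 0.023. KLF11 and KLF6 with crotonate also lay higher in every DAXX siRNA library, with log2 fold changes of 0.26 and 0.14 and adjusted p values of 0.294 and 0.521 in limma. KLF7 went the other way: each DAXX siRNA library with crotonate was below each NT siRNA library with crotonate, at 12.8 ± 1.44 RPM against 15.5 ± 0.72 RPM (SD, n = 4 each). Its log2 fold change was -0.28 with a limma adjusted p of 0.308. The share of all genes without overlap was not counted for the RNA comparisons between siRNAs. Nothing is therefore read from the separation of the groups at KLF4, KLF5, KLF6, KLF7 or KLF11.

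Without crotonate 0 of 10 members were called in limma, where 0.406% of all genes were, and 3 of 10 had an unadjusted p under 0.05, beside 12.2% of all genes. These were KLF4 at 18.4 to 21.4 RPM in DAXX siRNA cells against 14.7 to 17.4 RPM in NT siRNA cells, KLF5 at a mean of 55.0 ± 3.53 against 48.3 ± 4.83 RPM, and KLF13 at 69.2 ± 4.60 against 80.4 ± 5.45 RPM (SD, n = 4 each). Their log2 fold changes were 0.31, 0.19 and -0.22, with limma adjusted p values of 0.155, 0.376 and 0.28. KLF2, KLF7 and KLF13 had negative and the other 7 members positive fold changes both with and without crotonate. The median over the 10 was 0.08 with crotonate and 0.06 without, beside -0.01 for all genes in both.

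The interaction asked whether the DAXX siRNA effect differed between cells with crotonate and cells without. No member was called in limma, where 0.0% of all genes were, and none had an unadjusted p under 0.05, beside 2.41% of all genes. The largest difference was that of KLF11, at 0.17 on the log2 scale with a 95% interval of -0.12 to 0.46. For KLF4 the interval was -0.17 to 0.34 and for KLF5 -0.13 to 0.38. Differences between the conditions of up to those sizes lie within the error.

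Ordered by mean level, NT siRNA cells without crotonate were lowest and DAXX siRNA cells with crotonate highest for KLF3, KLF4, KLF5, KLF6, KLF9, KLF10 and KLF11. For KLF2, KLF7 and KLF13, DAXX siRNA cells without crotonate were lowest and NT siRNA cells with crotonate highest. KLF4 was the only member whose neighbours in that order never overlapped. Over the 16 libraries all 45 pairs of members had a positive Pearson r of log2 RPM, with a median of 0.738, from 0.402 for KLF2 with KLF5 to 0.9 for KLF4 with KLF6. After subtraction of each group's mean the median r was 0.325 and 31 of 45 pairs were positive, and KLF4 with KLF6 gave -0.286. These r describe the same 16 libraries and share their depth and grouping.

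Outside the family, the gene most like a member was sought among 8979 genes at or above the median level, by Pearson r over the 16 libraries. KLF13 was nearest to TBC1D16 at r = 0.965, KLF7 to UBASH3B at 0.963 and KLF3 to INPP5F at 0.96. KLF5 was nearest to GLTP (0.949), KLF10 to FARP1 (0.946) and KLF2 to RHOB, a small GTPase (0.94). KLF9 was nearest to FMNL2 (0.923) and KLF11 to GYG1 (0.903).

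Of the 8 other KLF genes, 5 were tested and KLF1, KLF17 and KLF18 had at most 5 reads in any library. With DAXX siRNA, KLF8, KLF12 and KLF15 rose with crotonate. KLF8, a CtBP-binding relative of KLF3, averaged 1.62 RPM in DAXX siRNA cells with crotonate against 0.925 RPM in DAXX siRNA cells without it, a log2 fold change of 0.80 (limma adjusted p = 0.00976). KLF15, a regulator of metabolism in liver and muscle, averaged 1.77 RPM against 1.13 RPM in the same groups (0.64, limma adjusted p = 0.0137). KLF12, the third CtBP-binding member, averaged 4.13 against 2.70 RPM (0.60, limma adjusted p = 0.0193). With NT siRNA, KLF12 at 5.88 RPM with crotonate against 3.63 RPM without and KLF8 at 1.67 against 1.02 RPM rose (limma adjusted p = 0.00537 and 0.0233). KLF14 and KLF15 did not pass there, at 0.0539 and 0.052. KLF16 showed log2 fold changes of -0.01 and -0.06 in the DAXX siRNA and NT siRNA arms, with 95% intervals of -0.25 to 0.24 and -0.30 to 0.18. AL159972.1 and AL138713.1 overlap KLF12, and AC012615.3 and AC012615.4 overlap KLF16.

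The SP genes, whose zinc fingers are closest to those of the KLF family, had 8 of 9 genes tested. With DAXX siRNA 2 of these rose with crotonate and with NT siRNA 4 rose, and none fell. SP5, a Wnt target, averaged 2.85 RPM in DAXX siRNA cells with crotonate against 1.61 RPM in DAXX siRNA cells, and 3.58 RPM in NT siRNA cells with crotonate against 1.53 RPM in NT siRNA cells (limma adjusted p = 0.0244 and 0.00134). SP8 averaged 1.32 RPM in NT siRNA cells with crotonate against 0.523 RPM in NT siRNA cells (limma adjusted p = 0.00148). SP4 averaged 27.2 against 17.6 RPM and 21.5 against 14.4 RPM in the same comparisons (limma adjusted p = 0.00576 and 0.00577). The list medians were 0.16 and 0.15, beside 0.06 and 0.07 for all genes.

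Among 12 KLF cofactors, including CtBP, Sin3 and class I deacetylase genes, 0 were called with crotonate in the DAXX siRNA arm. In the NT siRNA arm 1 fell, CREBBP, an acetyltransferase, to 95.3 RPM with crotonate against 113 RPM without (log2 fold change -0.25, limma adjusted p = 0.0477). Of 16 genes for regulators of KLF transcription or stability, 5 rose with DAXX siRNA and 3 with NT siRNA, and none fell. EGR1, an immediate early factor, averaged 74.9 RPM in DAXX siRNA cells with crotonate against 34.6 RPM in DAXX siRNA cells, and 64.3 against 30.8 RPM in NT siRNA cells (limma adjusted p = 6.22e-06 and 9.54e-06). FOXO1, an activator of KLF2 transcription in T cells, rose in both arms with log2 fold changes of 0.43 and 0.54 (limma adjusted p = 0.023 and 0.00472). MEF2C, an activator of KLF2 in endothelium, rose with DAXX siRNA (0.60, limma adjusted p = 0.0106). WWP1, a ubiquitin ligase for KLF2 and KLF5, rose with NT siRNA, to 81.8 RPM with crotonate against 60.2 RPM without (limma adjusted p = 0.00106).

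Of 14 genes induced with KLF10 and KLF11 by TGF-beta, 6 rose and 1 fell with crotonate in the DAXX siRNA arm, and 8 rose in the NT siRNA arm. Their medians were 0.29 and 0.47, beside 0.06 and 0.07 for all genes. CDKN2B, a cell-cycle inhibitor, averaged 13 RPM in DAXX siRNA cells with crotonate against 7.76 RPM in DAXX siRNA cells, and 13.8 against 7.51 RPM in NT siRNA cells (limma adjusted p = 0.000167 and 3.94e-05). CCN2, a matrix-associated growth factor, rose in both arms (0.75 and 0.74, limma adjusted p = 0.00885 and 0.00894), PMEPA1, an inhibitor of SMAD signalling, with DAXX siRNA (0.82, 0.00143), and ID2 with NT siRNA (0.84, 8.43e-06). TGIF1, a repressor of TGF-beta responses, fell with crotonate in the DAXX siRNA arm (log2 fold change -0.25, limma adjusted p = 0.011). Between siRNAs with crotonate, ID3, an inhibitor of differentiation, fell in DAXX siRNA cells, to 59.9 RPM against 92.9 RPM in NT siRNA cells (log2 fold change -0.65, limma adjusted p = 0.00387). TGIF1 also fell there, to 83.3 RPM against 110 RPM (-0.40, limma adjusted p = 0.00199).

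Of 10 genes induced with KLF9 by glucocorticoid, 8 were tested, and 2 rose in the DAXX siRNA arm and 3 in the NT siRNA arm. SGK1, a kinase of ion transport, averaged 6.06 RPM in DAXX siRNA cells with crotonate against 2.89 RPM in DAXX siRNA cells, and 5.85 against 2.86 RPM in NT siRNA cells (limma adjusted p = 9.29e-05 and 0.000133). TFCP2L1 rose in both arms (0.65 and 0.54, limma adjusted p = 6.81e-05 and 0.000372) and TSC22D3 with NT siRNA (0.35, 0.021). The list medians of 0.05 and 0.01 lay below those of all genes. Of 23 genes reported under the control of KLF2, KLF4, KLF5 or KLF6, 16 were tested, with 3 higher and 1 lower in the DAXX siRNA arm and 2 higher and 1 lower in the NT siRNA arm. Of all genes, 13% were called higher in the DAXX siRNA arm and 13.1% in the NT siRNA arm. The counts of this and the other gene lists were not tested against those shares. Nothing is therefore read from these counts, and a response of KLF target genes was not tested. CDKN1C, a cell-cycle inhibitor, rose in both arms (log2 fold changes 0.58 and 0.87, limma adjusted p = 0.0183 and 0.000836). S1PR1 is counted in the DAXX siRNA arm at 0.318 RPM with crotonate against 0.103 RPM without. Its level without crotonate was under the 0.25 RPM filter, so nothing is read from that call. ODC1, the first enzyme of polyamine synthesis, fell in both, to 505 RPM with crotonate against 586 RPM without in DAXX siRNA cells and to 511 against 588 RPM in NT siRNA cells (limma adjusted p = 0.0121 and 0.0192). CCNE1 was the only gene of that list called between siRNAs, higher in DAXX siRNA cells with crotonate (log2 fold change 0.38, limma adjusted p = 0.0322).

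Among the colon markers CDH1 rose with crotonate in both arms (0.29 and 0.32, limma adjusted p = 0.0174 and 0.00866) and EPCAM fell with DAXX siRNA (-0.27, 0.0191). Most markers of other cell types that express KLF2 or KLF4 averaged under 1 RPM. Of 10 leukocyte markers only CD68 averaged 1 RPM or more, MS4A1 had no read, and their sum spanned 11.1 to 14.8 RPM in DAXX siRNA cells with crotonate, 8.64 to 11.5 RPM in NT siRNA cells with crotonate, 11.1 to 13.1 RPM in DAXX siRNA cells and 9.70 to 13.5 RPM in NT siRNA cells. Of 11 fibroblast and endothelial markers, COL1A1 and ACTA2 averaged 1 RPM or more, DCN and LUM had no read, and the sum spanned 24.8 to 33.5, 23.5 to 28.9, 15.8 to 23.1 and 15.3 to 25.6 RPM in the same order. In that list ACTA2 rose with crotonate in both arms (limma adjusted p = 0.0222 and 0.0196). COL1A1 rose with DAXX siRNA, to 22.4 RPM with crotonate against 14.4 RPM without (limma adjusted p = 0.012). PECAM1, at 0.376 RPM in NT siRNA cells with crotonate against 0.0987 RPM in NT siRNA cells, was also called, but its level without crotonate was under the 0.25 RPM filter, so nothing is read from that call. The part of these markers in the KLF values was not tested.

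The ChIP comparisons asked whether anti-Kcr signal at these genes differs between the groups. Signal is given as the deposited log2 of scaled reads per region, which rises with region width, so regions are compared between groups only. The 20 member regions were 900 to 13350 bases wide, with a median of 2625 bases beside 1800 for all regions. In DAXX siRNA cells without crotonate, from which the input also came, they stood a median of 1.20 log2 units above the input, beside 0.99 for all regions. With 1 input library this excess has no replicate error. The regions were called with MACS, so nothing is read from their lying above the input. For 8 members a region lay within 2000 bases of the gene start. KLF2 had no region under its symbol and neither KLF3 region lay that near, but regions that the table gives to AC020911.2 (chr19:16317451-16327500) and KLF3-AS1 (chr4:38662801-38665650) cover both starts, and were added by position after the table was seen.

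**Figure D3:**
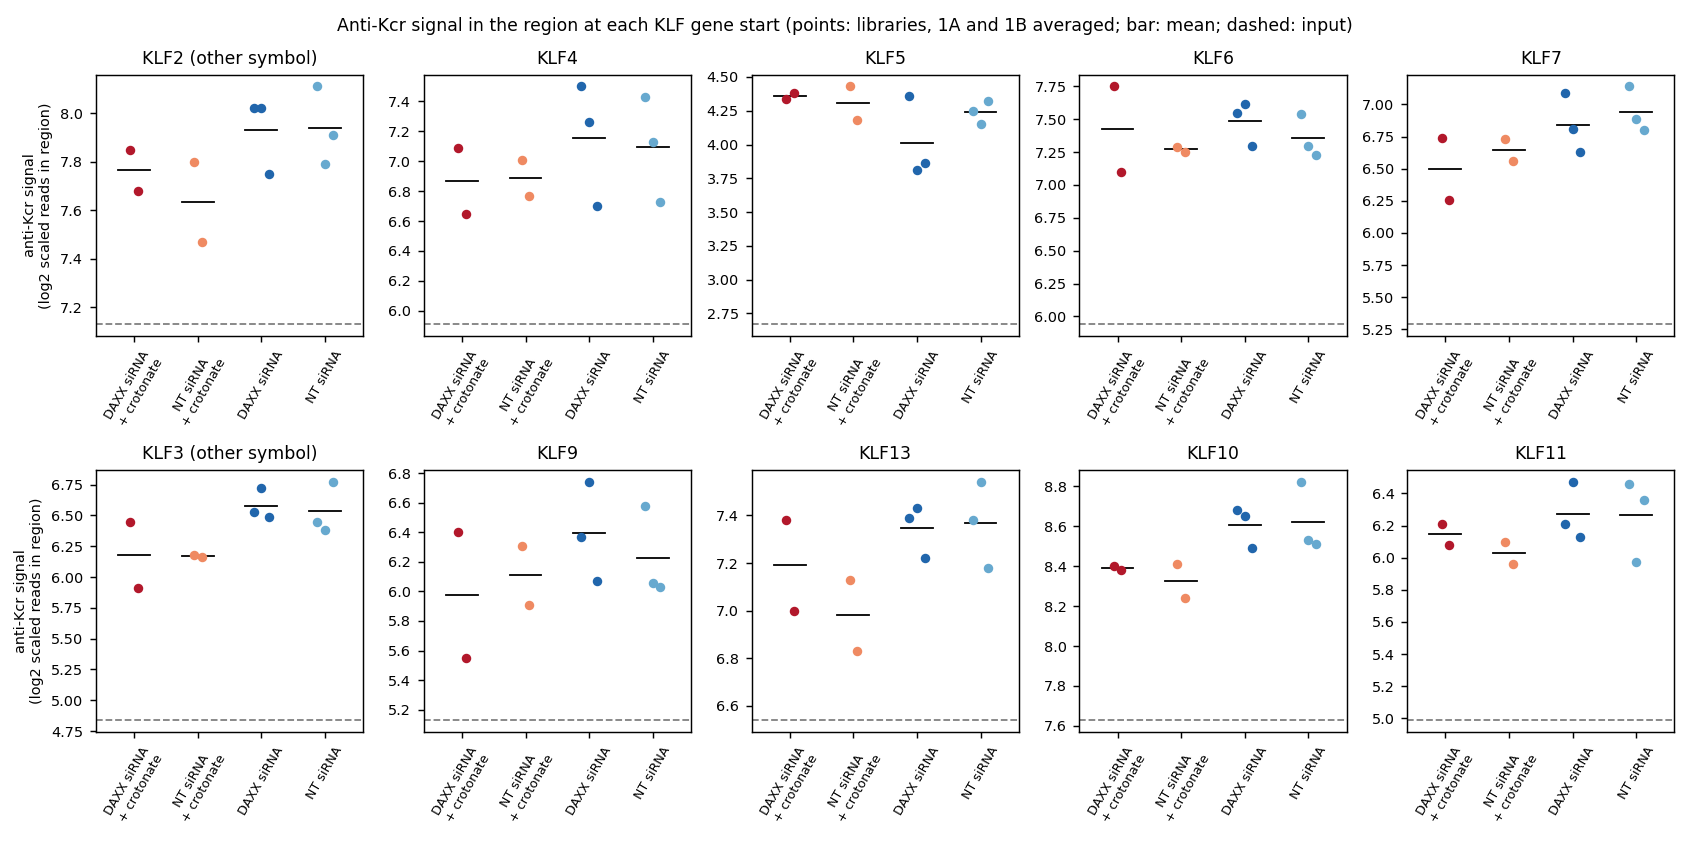
Anti-Kcr signal, as log2 scaled reads in the region at each KLF gene start, by library. Points are libraries with 1A and 1B averaged, bars are means and dashed lines the input. Axes do not start at 0 and differ between panels. All points lie above the input, from which nothing is read, since the regions were called with MACS. Crotonate groups overlap the others in most panels, with KLF10 and KLF3 as exceptions in both arms. The share of all regions without such overlap was not counted.

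With crotonate, anti-Kcr signal at the KLF starts was mostly a little lower, as it was in the whole table, and no member region was called. In the DAXX siRNA arm 17 of 20 member regions had a negative log2 fold change, with a median of -0.19 beside -0.16 for all regions, and in the NT siRNA arm 18 of 20 did, with a median of -0.23 beside -0.19. Negative values made up 72.0% and 74.4% of all regions. Library number 1 exists only without crotonate, so these comparisons are not balanced for library number. Without number 1 of the same arm the median of all regions was -0.14 with DAXX siRNA and -0.13 with NT siRNA. With the replicate number as a block it was -0.11 and -0.15. Calls by limma numbered 0 of 20 in both arms, where 0.0% of all regions were called. At an unadjusted p under 0.05 there were 0 of 20 members with DAXX siRNA, beside 8.50% of all regions, and 2 of 20 with NT siRNA, beside 13.3%. The fold scale depends on the deposited factors: centring on the median region moved the median of all regions to -0.02 in both arms, and limma-voom on recovered reads to 0.02 with DAXX siRNA and 0.04 with NT siRNA.

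KLF10, on the widest region (13350 bases, 252 to 406 reads per library), gave 8.40 and 8.38 in DAXX siRNA cells with crotonate, against 8.68, 8.65 and 8.49 in DAXX siRNA cells. It gave 8.41 and 8.24 in NT siRNA cells with crotonate, against 8.82, 8.53 and 8.51 in NT siRNA cells. The crotonate libraries were below the others in both arms, with log2 fold changes of -0.22 and -0.30 and 95% intervals of -0.52 to 0.09 and -0.60 to 0.00. The share of all regions without overlap was not counted for the Kcr crotonate comparisons. Nothing is therefore read from the separation of the groups at any member region, here or below. KLF13, at its start, gave 7.38 and 7 in DAXX siRNA cells with crotonate, against 7.39, 7.43 and 7.22 in DAXX siRNA cells, and 7.13 and 6.83 in NT siRNA cells with crotonate, against 7.38, 7.54 and 7.18 in NT siRNA cells. Its groups overlapped with DAXX siRNA and not with NT siRNA, where the log2 fold change was -0.39 (95% interval -0.75 to -0.03, unadjusted p = 0.0351 and adjusted p = 0.343 in limma).

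At KLF4 the start region (chr9:107486701-107492550) gave 7.09 and 6.65 in DAXX siRNA cells with crotonate, against 7.50, 7.26 and 6.70 in DAXX siRNA cells, and 7.01 and 6.77 in NT siRNA cells with crotonate, against 7.43, 7.13 and 6.73 in NT siRNA cells. All these groups overlapped. The log2 fold changes were -0.28 and -0.21 with 95% intervals of -0.72 to 0.15 and -0.64 to 0.23. At KLF6 the start region (chr10:3780901-3787350) gave 7.75 and 7.10 in DAXX siRNA cells with crotonate, against 7.55, 7.62 and 7.30 in DAXX siRNA cells, and 7.29 and 7.25 in NT siRNA cells with crotonate, against 7.54, 7.30 and 7.23 in NT siRNA cells. Its log2 fold changes of -0.07 and -0.09 had 95% intervals of -0.44 to 0.30 and -0.46 to 0.28, and turned positive after centring, quantile scaling or limma-voom.

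KLF5 was the only start region with a positive value in both arms, 0.35 with DAXX siRNA and 0.07 with NT siRNA, with 95% intervals of -0.29 to 0.99 and -0.58 to 0.71. That region (chr13:73055701-73056750) held only 10 to 23 reads per library. The next KLF5 region (chr13:73058851-73060950), which overlaps the 250 bases before the second RefSeq start, gave 0.07 and -0.27. For KLF7, KLF9 and KLF11 the start values were -0.34, -0.42 and -0.12 with DAXX siRNA and -0.30, -0.11 and -0.23 with NT siRNA, all with limma adjusted p values of 0.502 or more. By position, KLF3 gave -0.40 and -0.36 and KLF2 -0.17 and -0.30. The KLF3 values were below the others in every crotonate library of both arms, with limma adjusted p values of 0.59 and 0.432.

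Away from the starts, the second KLF9 region (chr9:70405651-70406850) had the largest change of the 20. It gave 3.75 and 3.77 in NT siRNA cells with crotonate, against 4.33, 4.77 and 4.93 in NT siRNA cells, a log2 fold change of -0.92 (95% interval -1.54 to -0.30, unadjusted p = 0.00509 and adjusted p = 0.247 in limma). In the DAXX siRNA arm it gave 4.49 and 3.97 with crotonate, against 4.54, 4.49 and 4.49 without, and the groups overlapped (-0.28). It held 10 to 23 reads per library. KLF13 had 4 more regions over its length, with log2 fold changes of -0.45 to -0.04 in the DAXX siRNA arm and -0.20 to 0.14 in the NT siRNA arm.

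Between siRNAs, no region of the 20 was called in limma with or without crotonate, and 0.0% of all regions were called in each. None of the 20 had an unadjusted p under 0.05, beside 4.17% of all regions with crotonate and 2.38% without. With crotonate (n = 2 each) the groups did not overlap at 4 of 20 regions, beside 29.1% of all regions: away from the starts of KLF5, KLF6 and KLF9 the DAXX siRNA libraries were above (log2 fold changes 0.21, 0.25 and 0.47), and at the region of KLF13 farthest from its start below (-0.23). Without crotonate the groups overlapped at all 20, while 7.16% of all regions did not. The log2 fold changes ranged from -0.24 to 0.47 with crotonate, with a median of 0.04, and from -0.28 to 0.31 without, with a median of -0.02. At KLF4, where RNA was called, the Kcr log2 fold change with crotonate was -0.02 with a 95% interval of -0.48 to 0.45. The Kcr interaction also had 0 calls, and 0 of 20 regions at an unadjusted p under 0.05, beside 3.09% of all regions.

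**Figure D4:**
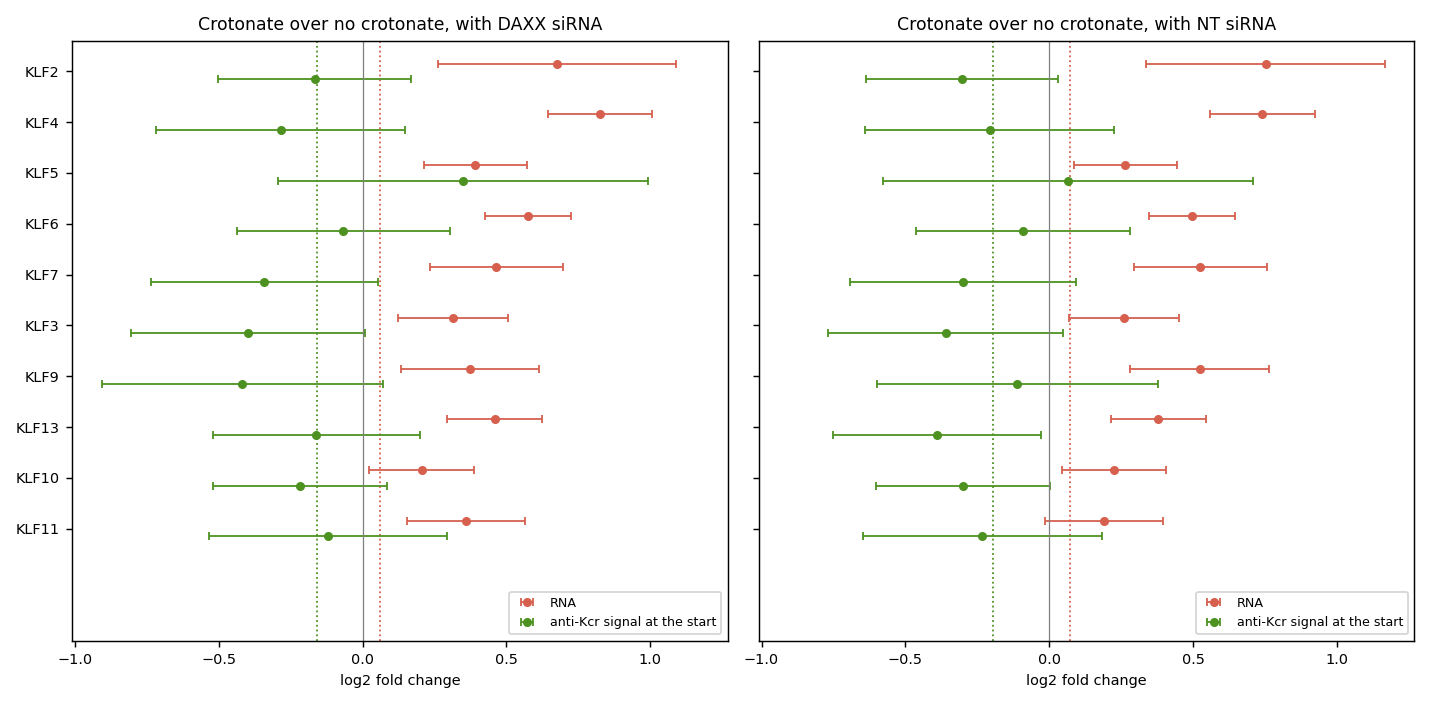
Log2 fold change with crotonate (x axis) of RNA and of anti-Kcr signal at the start of each KLF gene, with 95% intervals, in the DAXX siRNA arm (left) and the NT siRNA arm (right). Dotted lines are the medians of all genes and all regions. RNA values are all above 0, and signal values as deposited are below 0 except for KLF5, whose region held 10 to 23 reads per library. Some of the negative signal values turned positive under other scalings.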

How the data were processed

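RNA and anti-Kcr ChIP libraries of HCT116 were compared. Per the submitters' processing notes, reads were trimmed with Trim Galore 0.6.2 (RNA) or 0.6.5 (ChIP) and cutadapt 2.3 and aligned to GRCh38, with HISAT2 2.2.1 and Bowtie2 named as aligners and MACS for regions. The read counter, its strand setting, the annotation and how regions were merged: not given in the sources used here. The deposited RNA values are log2 RPM not divided by length, with 0 reads entered as 0.9 read, and the deposited ChIP values are log2 reads in regions times 1 factor per library. Dividing out the factor gave whole reads for 100% of values, within 0.01 read.

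The test was limma 3.58.1 in R 4.3.3 on the deposited log2 values, with all groups of an assay, a trended prior and Benjamini-Hochberg adjustment over 17973 genes with at least 0.25 RPM in 4 libraries, or over 49916 regions. Calls mean an adjusted p under 0.05, and the same code was checked on simulated reads with a fixed dispersion. For RNA it called 97% of the 1.5-fold and 100% of the 2-fold changes put in. For Kcr it called 14% of the 1.5-fold and 81% of the 2-fold changes. Changes were put only into genes or regions at or above the median read count, and reads of 1A and 1B were summed there. The lack of Kcr calls therefore does not show that changes of about 1.5-fold are absent. In regions below the median read count it does not show that 2-fold changes are absent either. ChIP libraries 1A and 1B differed by little more than read sampling (chi-squared per degree of freedom 1.012, p = 0.0251, with DAXX siRNA and 1.007, p = 0.132, with NT siRNA, against 1.035 to 1.383 for other pairs) and were averaged. A region counts as at the start within 2000 bases, and of several the one with the highest mean was taken. In the crotonate comparisons, deviations of same-numbered RNA libraries correlated at 0.188 to 0.738 with DAXX siRNA and 0.106 to 0.654 with NT siRNA. Some libraries correlated more with another number. NT siRNA replicate 4 gave 0.427 with NT siRNA crotonate replicate 3, against 0.205 with replicate 4. Others correlated most with their own number, such as DAXX siRNA replicate 4 (0.738). The numbers are therefore not shown to pair the samples. Between the siRNAs without crotonate, same-numbered libraries ranged from -0.67 to 0.57. Only 2 numbers are shared by the ChIP crotonate groups.

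The members, the gene lists and the naming rule were chosen with earlier results of these data known. The rule names all members and their regions, up to 3 called genes each way per list, and for each member the gene of highest r. Some genes that the rule names are not reported here. Alternatives were limma-voom on recovered reads, other scalings, filters, pseudocounts, the replicate block and leaving out each library. The libraries carry no molecular identifiers that the labels name, so read counts bound counting error only.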

Additional observations from a re-analysis of the deposited data

Results flagged for a closer look

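In KLF5, 1 of the 4 NT siRNA libraries without crotonate stood apart: it measured 41.1 RPM while the other 3 lay between 49.8 and 51.4 RPM. The same library, replicate 2, also had the lowest NT siRNA values of KLF3 (29.2 RPM), KLF6 (60.7 RPM), KLF7 (9.48 RPM), KLF9 (6.13 RPM) and KLF10 (64.5 RPM), and the highest of KLF2 (29.8 RPM), KLF4 (17.4 RPM) and KLF13 (85.3 RPM). In KLF7, 1 of the 4 DAXX siRNA libraries with crotonate, replicate 3, measured 10.6 RPM while the other 3 lay between 13.3 and 13.7 RPM. Both were marked because the gap to the nearest library exceeded Dixon's 95% critical value for the group's range. Of 40 groups of 4 examined, 2 met this, and chance gives about 1 in 20.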

How the results depend on the processing

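Over 24 alternatives (23 for the interaction), no member was called lower in any RNA comparison, none was called for DAXX siRNA without crotonate or for the interaction, and all crotonate fold changes stayed positive. Members called higher with crotonate in the DAXX siRNA arm numbered 9, 6 after centring, 4 under quantile scaling and 5 to 10 when 1 library was left out, with 5 without DAXX siRNA replicate 3 or DAXX siRNA crotonate replicate 1. In the NT siRNA arm the count was 7, with 5 under quantile scaling and 6 to 9 with 1 library left out. With the replicate block, 9 and 8 were called, and for DAXX siRNA with crotonate 2 in place of 1, KLF4 and KLF5; leaving out 1 library gave 0 to 2 there. Over all genes the block called 39 higher and 78 lower for DAXX siRNA without crotonate, against 18 and 55. It changed no other call than those of KLF5 and KLF10. On recovered reads limma-voom called 2351 genes higher and 391 lower with crotonate in the DAXX siRNA arm, and 2406 and 410 in the NT siRNA arm.

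Some uncalled RNA values changed sign with 1 library left out. For DAXX siRNA without crotonate the ranges were -0.033 to 0.113 for KLF3, -0.010 to 0.088 for KLF6 and -0.042 to 0.110 for KLF10. With crotonate they were -0.037 to 0.085 for KLF9 and -0.001 to 0.069 for KLF10. For the interaction they were -0.206 to 0.097 for KLF2, -0.131 to 0.025 for KLF7 and -0.077 to 0.075 for KLF10. No member region was called under any Kcr setting with 2 or more samples in each group. Over all regions the replicate block called 3 lower in the DAXX siRNA arm and 410 in the NT siRNA arm. Keeping 1A and 1B apart called 3 and 97, and limma-voom called 1 higher with NT siRNA. Leaving out 1 crotonate library leaves n = 1 in its Kcr group. Those settings give fold changes only, as medians of all regions and within the ranges for single members below. In the DAXX siRNA arm the median was -0.23 without crotonate library number 2 and -0.06 without number 3. In the NT siRNA arm it was -0.25 and -0.12. Under centring, quantile scaling and limma-voom, Kcr start values turned positive with DAXX siRNA for KLF6 (0.068, 0.124 and 0.131) and KLF11 (0.015, 0.078 and 0.082), and with NT siRNA for KLF6 (0.083, 0.151 and 0.127) and KLF9 (0.063, 0.126 and 0.044). Under quantile scaling so did KLF13 (0.036) and KLF2 (0.022) with DAXX siRNA and KLF4 (0.033) and KLF11 (0.010) with NT siRNA, and under limma-voom KLF13 with DAXX siRNA (0.033). With 1 library left out, ranges that crossed 0 were -0.395 to 0.261 for KLF6, -0.840 to 0.005 for KLF9 and -0.351 to 0.030 for KLF13 with DAXX siRNA, and -0.058 to 0.190 for KLF5 and -0.312 to 0.091 for KLF9 with NT siRNA. In each of these ranges the end past 0 came from a setting with n = 1 in a crotonate group. KLF9 with NT siRNA was also positive, at 0.067, without NT siRNA library number 1. The cause of these sign changes was not tested. Counting only regions within 500 bases of a start left 6 members with a start region in place of 8. Region reads were few, down to 10 per library, which limits what the ChIP comparisons can show.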
